A study of Mus musculus with 9 samples.

Results

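The genes for the receptors of glutamate, GABA and glycine were followed in mouse neural stem cells in which Rad21 was knocked down. Members were the rows of the count table whose gene symbol names an AMPA (Gria1 to Gria4), kainate (Grik1 to Grik5), NMDA (symbols beginning Grin1, Grin2 or Grin3), delta (Grid) or metabotropic glutamate receptor (Grm), a GABA-A (Gabr) or GABA-B (Gabbr1, Gabbr2) receptor, or a glycine receptor (Glra, Glrb). A row also needed at least 10 counts summed over the 9 libraries. The symbols matched 53 rows, and 37 of the 24503 rows of the table were members. The 3 members nearest the threshold, Gabrb2, Gabrr1 and Grm8, had 11 summed counts, and the nearest row below it, Grm2, had 6.

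The cells were primary neural stem cells of the E13.5 mouse cortex, selected as neurospheres and grown on laminin with FGF and EGF. All groups carried floxed Phf2 alleles (Phf2flox/flox) and were otherwise wild type, so the shNT cells share that background. Viral hairpins gave the 3 groups: shRad21_1 (hairpin shRad21 #1), shRad21_2 (hairpin shRad21 #2) and the non-targeting control shNT, with 3 libraries each. The labels do not say whether the libraries of a group came from separate cultures or animals. A p-value here reflects the spread among libraries within groups, and that spread may be technical. The main fit estimated this spread for each gene over all 3 groups together. A comparison of 2 groups thus also carries the spread of the third.

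Glutamate opens the AMPA, kainate and NMDA channels, which let cations in and depolarise the cell, and acts more slowly through metabotropic receptors that signal by G proteins. GABA and glycine open chloride channels built as rings of subunits, and GABA also acts on the G protein-coupled GABA-B receptor, an obligate pair of subunits. In the embryonic cortex some of these receptors are present on progenitors before synapses form, and GABA and glutamate are known to influence the proliferation of progenitors there. RAD21 is the kleisin subunit of cohesin, the ring that holds sister chromatids together and extrudes chromatin loops up to sites bound by CTCF.

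Library totals ran from 34780003 to 46644607 counts, so 3 counts corresponded to 0.0664 to 0.0880 CPM (counts on a common scale of library size, after TMM scaling). Rad21 averaged 180 ± 6.92 CPM in shRad21_1 and 85.3 ± 5.19 CPM in shRad21_2, against 479 ± 45 CPM in shNT (SD, n = 3 each). Nes, an intermediate filament gene of neural stem cells, averaged 1460 CPM in shRad21_1 and 2490 CPM in shRad21_2, against 1218 CPM in shNT. Nes does not stand for the whole list of 13 stem cell markers, where log2 fold changes were negative for 10 in shRad21_1 and 9 in shRad21_2. At an adjusted p under 0.05, 1 was higher and 0 lower in shRad21_1 (7.69%, against 9.82% of all genes). In shRad21_2, 4 were higher and 5 lower (69.2%, against 43.6% of all genes). Replicates 2 and 3 were close to each other in shRad21_1 and in shNT: a chi-square of their counts came to 2.18 and 3.18 per gene, against 23 to 69.6 for the other pairs within a group. Neither pair was within sampling noise, and all 9 libraries were kept as separate samples.

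Of the 53 matching rows, 9 had no count in any library, among them Gabra6, Gabrp, Gabrr3, Glra2, Glra3, Glra4, Grm6 and Grm7. A further 7 held between 1 and 6 counts, among them Gabra4, Gabrb1, Gabrd, Gabrg3, Glra1 and Grm2. Of the 37 members 10, with 11 to 70 summed counts, did not pass the filter on low counts and were not tested. They included Gabra5, Gabrb2, Gabre, Gabrq and Gabrr1 of the GABA-A family, Grin2c, Grin3b, Grm8, and Grin1os, an RNA antisense to Grin1 that encodes no receptor. Gabra5 had 12 counts in shRad21_1, 0 in shRad21_2 and 1 in shNT. The remaining 27 members, with 81 to 68300 summed counts, were tested. They covered all 4 AMPA and all 5 kainate genes, 5 of 7 NMDA, 1 of 2 delta and 4 of 5 metabotropic members, 5 of 10 GABA-A members, both GABA-B genes and the glycine receptor gene Glrb.

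Levels between genes were compared as CPM per kilobase of annotated exon, averaged over the 3 group means. On this scale the highest members were Grik5 at 21.2, Grm5 at 18.6, Gria3 at 10.2, Gria4 at 7.63, Gabbr1 at 7.15, Gabrg1 at 6.01 and Glrb at 4.65. Glrb, the subunit that anchors glycine receptors to the scaffold gephyrin, was measured where the ligand-binding alpha genes Glra1 to Glra4 had 1 count in all.

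With edgeR's quasi-likelihood test and Benjamini-Hochberg adjustment over 13560 genes, 2 members were called higher and 5 lower in shRad21_1 than in shNT. These 7 of 27 tested members (25.9%) compare with 9.82% of all genes called, 4.19% higher and 5.63% lower. Grid1 and Grm3 were higher, and Gabrg1, Grik2 and Grin3a were among the lower. The median log2 fold change of the tested members was -0.15, against 0.0052 for all genes tested. With the close replicates 2 and 3 of shRad21_1 and of shNT each summed to 1 library, 0 members were called higher and 1 lower, Grin3a. Without shNT replicate 1, 2 or 3, or without shRad21_1 replicate 2 or 3, 2 members stayed lower, Grin3a among them, and Gabrg1 and Grik2 were among those lost each time. Without shRad21_1 replicate 1, 4 members were called higher, Gabbr1 and Gria3 being added.

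In shRad21_2, 2 members were called higher and 12 lower than in shNT, 51.9% of those tested, where 43.6% of all genes were called (21.1% higher and 22.5% lower). The total share was thus near that of all genes, and the calls lay mostly in the lower direction. Gabra2 and Grid1 were higher. Gria1, Gria4, Grik3, Grin2b, Grin3a, Grm4, Grm5, Gabrg1, Gabbr2 and Glrb were among the lower. The median log2 fold change of the members was -0.80, against 0.012 for all genes. Between the hairpins, 4 members were called higher and 12 lower in shRad21_2 than in shRad21_1 (59.3% of those tested), against 26.3% of all genes (11.9% higher and 14.4% lower), and the members' median was -0.74. The 4 higher calls were Gabra2, Gabra3, Grid1 and Grik2, and between 0 and 3 of them remained when any 1 library was left out.

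The 2 comparisons with shNT share the shNT libraries. Grin3a and Gabrg1 were among those called lower in both, and Grid1 was called higher in both. In edgeR's test on all 9 libraries no comparison called 8 of the tested members: Gria2, Grik1, Grik4, Grik5, Grin1, Grin2d, Gabrr2 and Gabbr1. Of these Grik4, Grik5, Grin1 and Gabbr1 were called in at least 1 comparison under an alternative. In these bulk samples fewer cells of a type and less RNA per cell cannot be told apart.

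**Figure D1:**
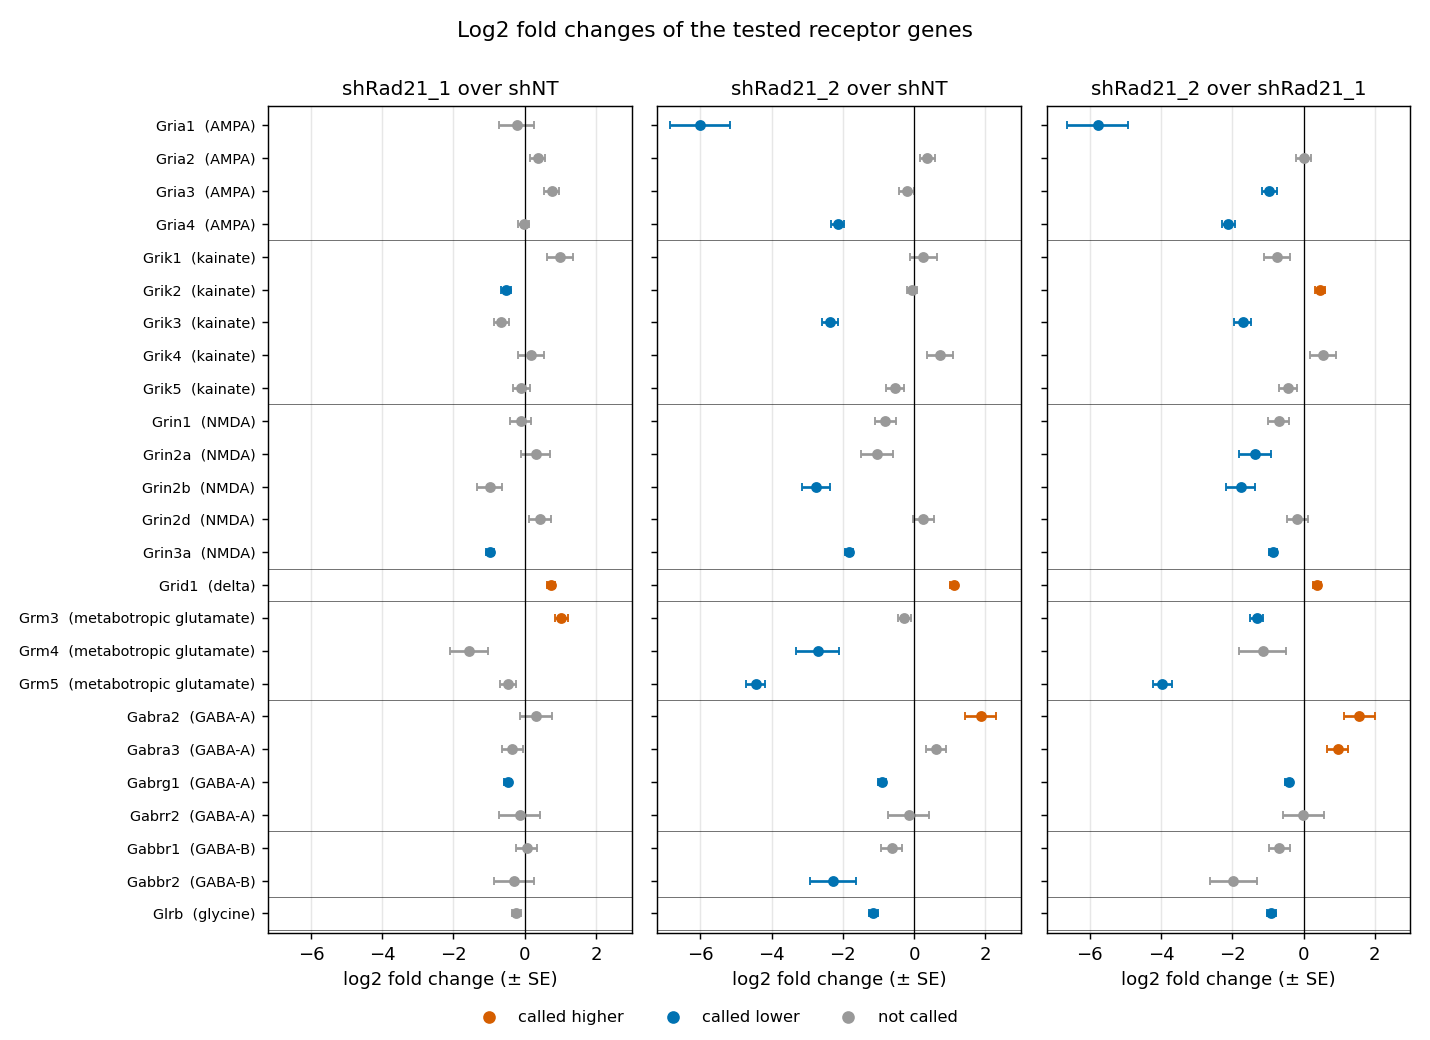
Log2 fold change (x axis, ± SE of the edgeR fit) of 25 tested receptor genes (rows, by receptor class) for shRad21_1 over shNT, shRad21_2 over shNT and shRad21_2 over shRad21_1. Orange marks genes called higher, blue genes called lower and grey genes not called at an adjusted p under 0.05; the lowest fitted values are those of Gria1 and Grm5 in shRad21_2.

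Markers of other cell types moved in the same libraries, and their counts are to be read against the 9.82% of all genes called in shRad21_1 and the 43.6% called in shRad21_2. In shRad21_2 against shNT, 11 of 13 tested astrocyte markers were lower and 1 was higher (92.3% called), and their summed level over the list of 14 ran from 964 to 1011 CPM in shRad21_2, against 1947 to 1983 CPM in shNT. In shRad21_1, 0 of the 13 were called by edgeR (5 at an unadjusted p under 0.05), 1 by the DESeq2 Wald test and 0 by limma-voom, and the sum ran from 1216 CPM in replicate 1 to 1845 CPM. Among 14 tested neuronal markers 2 were higher and 6 lower in shRad21_2 (57.1% called), with sums of 1161 to 1281 CPM against 1298 to 1408 CPM in shNT. In shRad21_1, 1 was higher and 3 were lower (28.6%), with sums of 1252 to 1298 CPM. Most of these sums was Map2, which was called higher in shRad21_2. Without it the other 14 of the list summed to 373 to 390 CPM in shRad21_1 and 217 to 297 CPM in shRad21_2, against 525 to 558 CPM in shNT. The largest part of this remainder was Gap43, called lower under both hairpins. Gap43 had 195, 237 and 240 CPM in shRad21_1 and 168, 95.3 and 112 CPM in shRad21_2, against 400, 418 and 423 CPM in shNT. Syt1 was called higher in shRad21_1 and Elavl4 in shRad21_2. The lower remainders thus reflect largely Gap43 and say little of the other genes. Dcx, Rbfox3, Snap25, Mapt and Syn1 were also called lower in shRad21_2. Log2 fold changes were negative for 10 of the 14 tested markers in shRad21_1 (median -0.37) and for 11 in shRad21_2 (median -0.64). The list did not fall as a whole, since some members were called higher. The oligodendrocyte lineage list had 1 higher and 7 lower of 9 tested in shRad21_2 (88.9%), with Sox10, Mog, Mag and Gpr17 without a count there. Of 13 neural stem cell markers, 4 were higher and 5 lower in shRad21_2 (69.2%), and the sums were 6616 to 7744 CPM in shRad21_1 and 7331 to 8399 CPM in shRad21_2, against 8050 to 8444 CPM in shNT. Of 10 microglial markers Cx3cr1, Aif1, C1qa, C1qb and Trem2 had no count in any library, and the list summed to 18.9 to 22 CPM in shRad21_1 and 18.2 to 20.3 CPM in shRad21_2, against 31.7 to 35.6 CPM in shNT. Of its 2 tested members 1 was lower in shRad21_1 and both were lower in shRad21_2. The part of these shifts in the receptor results was not tested.

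Among the metabotropic receptors, which couple to G proteins, Grm5 had the largest fall in shRad21_2. It was the second highest receptor mRNA per kilobase only in the average over the 3 group means. In shNT it was the highest, at 31.7 CPM per kilobase against 24.2 for Grik5, and in shRad21_2 it was at 1.46. Grm5 encodes mGlu5, a group I receptor that raises intracellular calcium and is known from radial glia and astrocytes. The gene (ENSMUSG00000049583.15) lies on the plus strand of chromosome 7 from 87584168 to 88134907 of mm10. Grm5 stood at 142, 283 and 276 CPM in shRad21_1 replicates 1 to 3 and at 13.1, 18.6 and 13.2 CPM in shRad21_2, against 291, 349 and 333 CPM in shNT. All shRad21_2 libraries lay far below every other library, and shRad21_1 replicate 1 lay midway between them and the rest. The log2 fold change was -4.44 (SE 0.27, adjusted p = 3.81e-06) in shRad21_2 against shNT and -3.97 (SE 0.27, adjusted p = 2.91e-05) against shRad21_1. In shRad21_1 against shNT it was -0.47 (SE 0.23, adjusted p = 0.233) and was not called.

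Grm3 encodes mGlu3, a group II receptor that lowers cyclic AMP and is prominent on astrocytes. Grm3 was found at 16.4, 23.9 and 23 CPM in shRad21_1 and at 6.64, 10.1 and 8.82 CPM in shRad21_2, against 10.8, 10.4 and 9.80 CPM in shNT. Every shRad21_1 library was above every other library, while shRad21_2 and shNT overlapped. Grm3 rose in shRad21_1 (log2 fold change 1.03, SE 0.18, adjusted p = 0.00752) and was lower in shRad21_2 than in shRad21_1 (-1.31, SE 0.18, adjusted p = 9.87e-04). Against shNT the shRad21_2 value was -0.28 (SE 0.18, adjusted p = 0.229). Grm4, a presynaptic group III receptor, had 32 counts in shRad21_1 and 15 in shRad21_2, against 106 in shNT. Its levels were 0.353, 0.240 and 0.266 CPM in shRad21_1 and 0.221, 0 and 0.143 CPM in shRad21_2, against 0.770, 1.04 and 0.754 CPM in shNT. The shNT libraries were the 3 highest, and Grm4 fell by 2.71 on the log2 scale in shRad21_2 (SE 0.59, adjusted p = 0.00483), a value that was -3.51 without shRad21_2 replicate 1. In shRad21_1 the value was -1.57 (SE 0.53, adjusted p = 0.0937, called with a fit of 2 groups or without shRad21_2 replicate 2), and between the hairpins -1.14 (SE 0.66, adjusted p = 0.222).

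The make-up of the class differed between the groups. Of the summed metabotropic mRNA per kilobase, Grm5 took 75.8 ± 3.56% in shRad21_1 and 34.0 ± 3.10% in shRad21_2, against 89.6 ± 1.19% in shNT (SD, n = 3 each). Grm3 took 23.9 ± 3.43% in shRad21_1 and 65.0 ± 3.40% in shRad21_2, against 9.66 ± 1.15% in shNT. The ranges of the 3 groups did not overlap for either gene. In shRad21_2 the larger share of Grm3 stood beside a level of Grm3 mRNA that was not called different from shNT.

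**Figure D2:**
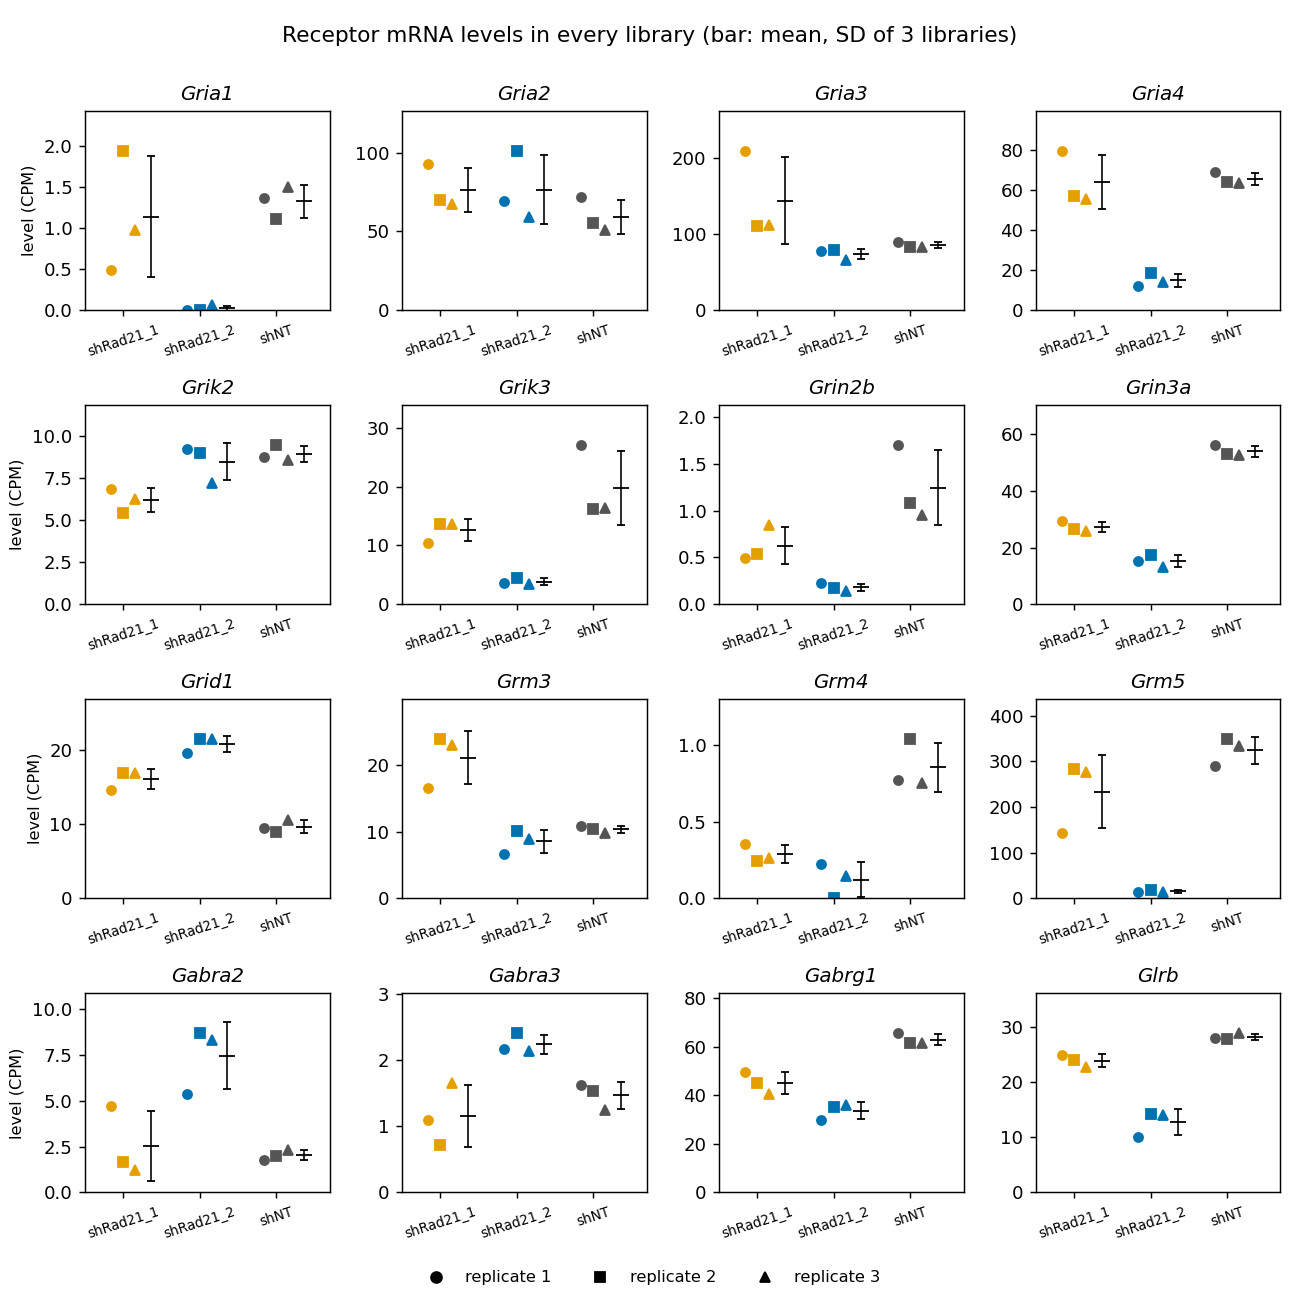
Level (y axis, CPM, linear scale from 0) of 16 receptor genes in the 9 libraries, grouped on the x axis as shRad21_1 (orange), shRad21_2 (blue) and shNT (grey), with the mean and SD of 3 libraries beside the points and a marker shape for each replicate number. Grm5 and Gria4 lie lowest in shRad21_2 in all 3 libraries, and Grin3a lies in the order shNT, shRad21_1, shRad21_2 with no overlap.

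AMPA receptors, the fast channels of excitatory synapses, are tetramers of the products of Gria1 to Gria4. Gria4 (ENSMUSG00000025892.16, chromosome 9 from 4417896 to 4796234, minus strand) had 79.7, 56.9 and 55.3 CPM in shRad21_1 and 12.2, 18.4 and 13.9 CPM in shRad21_2, against 69.2, 64.0 and 63.4 CPM in shNT. The shRad21_2 libraries were the 3 lowest, and the shRad21_1 libraries spanned the shNT range. Gria4 fell by 2.15 on the log2 scale in shRad21_2 against shNT (SE 0.18, adjusted p = 2.07e-05) and fell by 2.11 against shRad21_1 (SE 0.18, adjusted p = 7.13e-05). For shRad21_1 against shNT the value was -0.034 (SE 0.17, adjusted p = 0.924).

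Gria1, whose product is a main AMPA subunit of mature forebrain neurons, was low in these cells and nearly lost in shRad21_2. It had 128 counts in shRad21_1 and 2 in shRad21_2, against 165 in shNT. By library this was 0.489, 1.95 and 0.984 CPM in shRad21_1 and 0, 0 and 0.0571 CPM in shRad21_2, against 1.37, 1.11 and 1.51 CPM in shNT. The ratio of summed scaled counts was 0.0131 for shRad21_2 over shNT (exact Clopper-Pearson interval 0.00158 to 0.0482, counting error only) and 0.0153 for shRad21_2 over shRad21_1 (0.00183 to 0.0564). The test called both differences (adjusted p = 4.19e-04 and 0.00143). The fitted log2 fold changes of -6.00 (SE 0.84) and -5.78 (SE 0.85) depend on the treatment of the 0 counts. Against shNT the fitted value was -8.72 without shRad21_2 replicate 3, the only library with counts, and -5.37 without replicate 1. Against shRad21_1 it was -8.49 without shRad21_2 replicate 3, and -5.15 without shRad21_2 replicate 1 or shRad21_1 replicate 2. For shRad21_1 against shNT the value was -0.22 (SE 0.49, adjusted p = 0.822), with overlapping libraries.

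Gria3, the highest AMPA gene per kilobase, differed between the hairpins. Its levels were 209, 110 and 111 CPM in shRad21_1 and 77.0, 78.2 and 65.8 CPM in shRad21_2, against 89.9, 82.4 and 83.0 CPM in shNT. All shRad21_1 libraries were the highest and all shRad21_2 libraries the lowest, with replicate 1 of shRad21_1 far above its group. Gria3 was lower in shRad21_2 than in shRad21_1 (-0.96, SE 0.22, adjusted p = 0.0105). Against shNT neither value was called, with 0.75 (SE 0.22, adjusted p = 0.0541) in shRad21_1 and -0.21 (SE 0.21, adjusted p = 0.459) in shRad21_2. The shRad21_1 value was called without shRad21_1 replicate 1, 2 or 3, with the DESeq2 Wald test, and with the replicate number as a block (0.70, adjusted p = 0.0401), and its adjusted p ran from 0.00579 to 0.167 over 18 alternatives.

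Gria2, whose edited subunit makes AMPA channels nearly impermeable to calcium, was not called in any comparison. It averaged 76.5 ± 14.0 CPM in shRad21_1 and 76.5 ± 21.9 CPM in shRad21_2, against 59.3 ± 10.9 CPM in shNT (SD, n = 3 each), and the groups overlapped. Per kilobase, Gria2 made up 16.8 ± 1.65% of AMPA mRNA in shRad21_1 and 32.9 ± 4.0% in shRad21_2, against 16.5 ± 1.82% in shNT. Gria4 made up 34.5 ± 2.44% in shRad21_1 and 15.9 ± 2.00% in shRad21_2, against 45.1 ± 0.93% in shNT. The shRad21_2 shares of Gria2 lay above those of all other libraries and its shares of Gria4 below them. Shares of mRNA do not give the subunits of assembled channels.

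**Figure D3:**
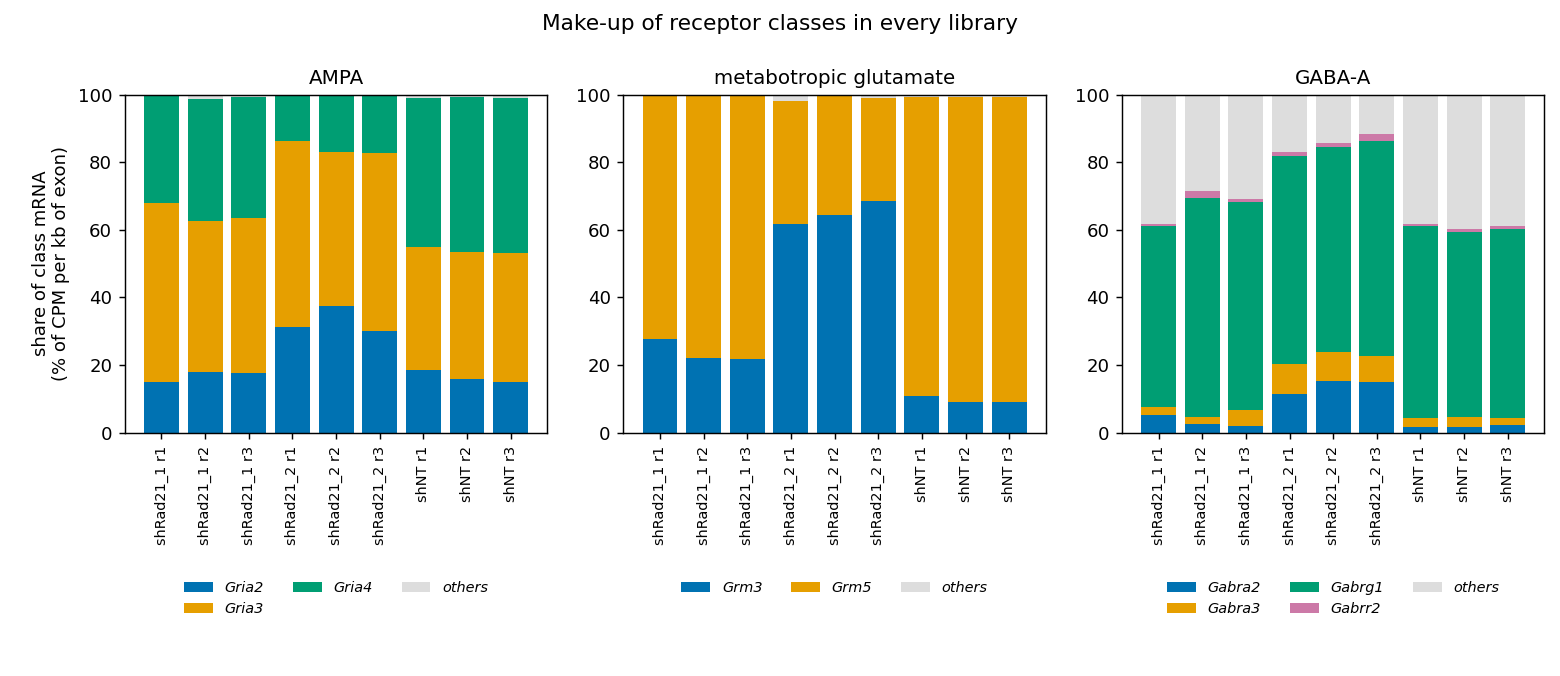
Share of each gene (y axis, % of the summed CPM per kilobase of exon of its class) in each of the 9 libraries (x axis; r1 to r3 are replicates) for the AMPA, metabotropic glutamate and GABA-A classes, with the remaining genes of a class together in light grey. In the shRad21_2 libraries Grm3 takes 61.9 to 68.6% of metabotropic mRNA and Gria2 30.0 to 37.5% of AMPA mRNA, and Gabra2 takes 11.4 to 15.4% of GABA-A mRNA.

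Kainate receptors combine the low-affinity subunits of Grik1 to Grik3 with the high-affinity subunits of Grik4 and Grik5, which need a low-affinity partner to form a channel. Grik5 made up most of this class, with 91.0 ± 2.64% of kainate mRNA per kilobase in shRad21_1 and 92.7 ± 0.95% in shRad21_2, against 88.4 ± 4.54% in shNT. Its levels were 67.5, 141 and 142 CPM in shRad21_1 and 81.4, 87.2 and 90.6 CPM in shRad21_2, against 98.2, 138 and 138 CPM in shNT. Replicate 1 was the lowest library of shRad21_1 and of shNT, and no comparison was called. The log2 fold changes of Grik5 were -0.098 (SE 0.24, adjusted p = 0.844) in shRad21_1, -0.53 (SE 0.25, adjusted p = 0.104) in shRad21_2 and -0.44 (SE 0.25, adjusted p = 0.215) between the hairpins. The shRad21_2 value against shNT was called with a fit of 2 groups (-0.53), with the replicate block (-0.50) and without shRad21_1 replicate 1 (-0.53). Its adjusted p ran from 0.0043 to 0.247 over its alternatives. The value between the hairpins was called only without shRad21_1 replicate 1, at -0.71 (adjusted p 0.00275 to 0.545 over its alternatives).

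Grik3 was the kainate gene with the largest fall. It had 10.4, 13.7 and 13.7 CPM in shRad21_1 and 3.65, 4.52 and 3.37 CPM in shRad21_2, against 27.1, 16.1 and 16.3 CPM in shNT. The 3 groups did not overlap, and shNT replicate 1 was high within its group. Grik3 fell by 2.37 on the log2 scale in shRad21_2 against shNT (SE 0.23, adjusted p = 4.91e-05) and fell by 1.71 against shRad21_1 (SE 0.23, adjusted p = 8.33e-04). In shRad21_1 the value of -0.65 (SE 0.21, adjusted p = 0.0838) was not called by edgeR but was by the DESeq2 Wald test (-0.66), with an adjusted p of 0.0298 to 0.22 over the alternatives. Grik2 was at 6.85, 5.44 and 6.28 CPM in shRad21_1 and 9.23, 9.0 and 7.22 CPM in shRad21_2, against 8.74, 9.49 and 8.56 CPM in shNT. It was called lower in shRad21_1 (-0.53, SE 0.14, adjusted p = 0.0442) and higher in shRad21_2 than in shRad21_1 (0.46, SE 0.14, adjusted p = 0.0408), with -0.073 (SE 0.14, adjusted p = 0.701) in shRad21_2 against shNT. The first call held in 9 of 18 alternatives with an adjusted p of 0.0098 to 0.278, and was lost with the replicate block (-0.53, adjusted p = 0.0521). It was also lost when any 1 library of shNT, replicate 2 or 3 of shRad21_1, or replicate 2 of shRad21_2 was left out. The second held in 7 of 18, and leaving out any 1 library of shNT, replicate 2 or 3 of shRad21_1, or replicate 1 or 2 of shRad21_2 ended it. Grik1 and Grik4 averaged between 0.295 and 1.10 CPM over the groups and were not called by edgeR. Without shRad21_1 replicate 1, Grik4 was called higher in shRad21_2 than in shNT (0.73; adjusted p 0.031 to 0.261 over its alternatives).

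NMDA receptors pair the obligatory glycine-binding subunit of Grin1 with glutamate-binding subunits (Grin2a to Grin2d) or with Grin3a and Grin3b, glycine-binding subunits that reduce calcium entry. Grin3a (ENSMUSG00000039579.15) lies on the minus strand of chromosome 4 from 49661611 to 49845744. Grin3a reached 29.4, 26.7 and 25.9 CPM in shRad21_1 and 15.1, 17.4 and 13.0 CPM in shRad21_2, against 56.3, 52.9 and 52.9 CPM in shNT. The 3 groups were separate, with narrow ranges. Its log2 fold change was -0.98 (SE 0.11, adjusted p = 0.00103) in shRad21_1, -1.83 (SE 0.11, adjusted p = 3.81e-06) in shRad21_2 and -0.85 (SE 0.11, adjusted p = 7.77e-04) between the hairpins. Grin3a was called in all 3 comparisons under each of the 18 alternatives. Per kilobase it made up 72.3 ± 6.38% of NMDA mRNA in shRad21_1 and 68.0 ± 2.59% in shRad21_2, against 83.8 ± 2.79% in shNT.

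Grin2b, the subunit that dominates NMDA receptors of the fetal brain, was rare here, with 70 counts in shRad21_1, 21 in shRad21_2 and 151 in shNT. By library it had 0.489, 0.534 and 0.851 CPM in shRad21_1 and 0.221, 0.176 and 0.143 CPM in shRad21_2, against 1.70, 1.09 and 0.954 CPM in shNT. The groups did not overlap, and Grin2b fell by 2.75 in shRad21_2 against shNT (SE 0.39, adjusted p = 4.61e-04) and fell by 1.76 against shRad21_1 (SE 0.41, adjusted p = 0.012). The call against shRad21_1 was lost with close pairs summed (-1.71) and without shRad21_1 replicate 3 (-1.47), with an adjusted p of 0.00532 to 0.0505 over its alternatives. In shRad21_1 the value was -0.99 (SE 0.34, adjusted p = 0.0977). Grin2a, a subunit of mature synapses, was rarer still, with 53 counts in shRad21_1, 21 in shRad21_2 and 47 in shNT. Its levels were 0.707, 0.347 and 0.372 CPM in shRad21_1 and 0.177, 0.264 and 0.114 CPM in shRad21_2, against 0.440, 0.378 and 0.333 CPM in shNT. The shRad21_2 libraries were the 3 lowest. Grin2a was called lower in shRad21_2 than in shRad21_1 (-1.35, SE 0.45, adjusted p = 0.0498), just under the threshold. The call held in 2 of 17 alternatives, with any library but replicate 2 of shRad21_2 left out ending it, and an adjusted p of 0.0424 to 0.134. Against shNT its values were 0.31 (SE 0.41, adjusted p = 0.677) in shRad21_1 and -1.04 (SE 0.45, adjusted p = 0.0885) in shRad21_2.

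Grin1 averaged 4.92 ± 1.82 CPM in shRad21_1 and 3.04 ± 0.25 CPM in shRad21_2, against 5.29 ± 1.47 CPM in shNT (SD, n = 3 each). In shRad21_2 against shNT its value of -0.80 (SE 0.30, adjusted p = 0.0522 by edgeR) missed the threshold narrowly. It was called in 6 of 18 alternatives, which were library totals, the DESeq2 Wald test, a fit of 2 groups, the replicate block, and leaving out replicate 1 of shNT or of shRad21_1, with an adjusted p of 0.00779 to 0.184. Between the hairpins it was called only without shRad21_1 replicate 1. Grin1 and Grin1os share 1307 bases of exon on opposite strands, and no source used here gives the strand setting of the counting, so their reads cannot be told apart. Grin2d averaged 1.34 ± 0.41 CPM in shRad21_1 and 1.18 ± 0.21 CPM in shRad21_2, against 0.991 ± 0.145 CPM in shNT, and was not called.

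Grid1 was the member called higher under both hairpins. It encodes the delta receptor GluD1, which belongs to the glutamate receptor family by sequence and organises synapses by binding cerebellins. Grid1 (ENSMUSG00000041078.7) lies on the plus strand of chromosome 14 from 34820108 to 35583379. Its levels were 14.5, 16.9 and 16.9 CPM in shRad21_1 and 19.6, 21.4 and 21.4 CPM in shRad21_2, against 9.43, 8.97 and 10.6 CPM in shNT. The 3 groups did not overlap and lay in the reverse of the order of Grin3a. Grid1 rose by 0.74 on the log2 scale in shRad21_1 (SE 0.11, adjusted p = 0.00379) and by 1.11 in shRad21_2 (SE 0.11, adjusted p = 4.97e-05). The difference of 0.37 between the hairpins (SE 0.11, adjusted p = 0.0293) was called in 10 of 18 alternatives and was lost when any 1 shRad21_1 library was left out or without shRad21_2 replicate 2 or 3.

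GABA-A receptors are rings of subunits, usually of alpha, beta and gamma type, around a chloride channel. Gabrg1, a gamma subunit known from glia and few neurons, was the highest GABA-A gene per kilobase. It had 49.8, 44.9 and 40.7 CPM in shRad21_1 and 29.7, 35.3 and 36.2 CPM in shRad21_2, against 65.7, 61.8 and 61.5 CPM in shNT. The groups were separate. Gabrg1 fell by 0.48 in shRad21_1 (SE 0.10, adjusted p = 0.0177), fell by 0.90 in shRad21_2 (SE 0.10, adjusted p = 1.25e-04) and fell by 0.42 between the hairpins (SE 0.10, adjusted p = 0.0152). Its call in shRad21_1 was lost when any 1 shNT library was left out (-0.50 to -0.45) and without shRad21_1 replicate 2 (-0.48) or 3 (-0.41). With close pairs summed both its shRad21_1 call and the call between the hairpins (-0.46) were lost.

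Gabra2, an alpha subunit, moved the other way. Its levels were 4.73, 1.65 and 1.20 CPM in shRad21_1 and 5.36, 8.68 and 8.31 CPM in shRad21_2, against 1.79, 1.96 and 2.33 CPM in shNT. All shRad21_2 libraries were above all others, and shRad21_1 replicate 1 was nearly as high while replicates 2 and 3 lay within or below the shNT range. Gabra2 rose by 1.87 in shRad21_2 against shNT (SE 0.44, adjusted p = 0.00671). Against shRad21_1 it rose by 1.56 (SE 0.43, adjusted p = 0.0259). This second call held in 12 of 18 alternatives. It was lost with a fit of 2 groups (1.56) and with close pairs summed (1.30). Leaving out shRad21_1 replicate 2 (1.33) or 3 (1.22), or shRad21_2 replicate 2 (1.43) or 3 (1.47), also ended it. The value was 2.38 without shRad21_1 replicate 1. In shRad21_1 against shNT the value was 0.31 (SE 0.44, adjusted p = 0.703). Gabra3, another alpha gene, averaged 1.15 ± 0.47 CPM in shRad21_1 and 2.24 ± 0.14 CPM in shRad21_2, against 1.47 ± 0.20 CPM in shNT. It was called between the hairpins (0.96, SE 0.29, adjusted p = 0.0362), a call that held in 10 of 18 alternatives and was lost without shRad21_1 replicate 2, shNT replicate 2 or 3, or any 1 shRad21_2 library. Gabrr2, which encodes a rho subunit known from the retina, averaged between 0.223 and 0.244 CPM over the groups and was not called.

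Gabra2 and Gabrg1 are neighbours, and so are Gria2 and Glrb. On chromosome 5 Gabrg1 (70751047 to 70842617) and Gabra2 (70957597 to 71095849) lie on the minus strand with 114979 bases between them. In shRad21_2 against shNT, Gabrg1 was called lower and Gabra2 higher. On chromosome 3 Gria2 (80681450 to 80802835) and Glrb (80843599 to 80913660) lie on the minus strand with 40763 bases between them. Glrb was called lower in shRad21_2 and Gria2 was not called, and the difference between these 2 genes was not tested. The other GABA-A clusters, on chromosomes 4, 7, 11 and X, had no more than 1 tested member each.

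The promoters of these 4 neighbours are shown because 1 gene of each pair was called lower in shRad21_2 and the other was not. Each runs from 250 bases before to 50 bases after the RefSeq start site (GRCm38.p6, the build mm10), on the minus strand and 5′ to 3′. Capitals mark the letters CCCTC, after which CTCF is named, on either strand, so that GAGGG marks a match on the opposite strand. These letters alone are not the CTCF binding motif. The windows are chr5:71095800-71096099 for Gabra2, chr5:70842568-70842867 for Gabrg1, chr3:80802786-80803085 for Gria2 and chr3:80913611-80913910 for Glrb.
Gabra2: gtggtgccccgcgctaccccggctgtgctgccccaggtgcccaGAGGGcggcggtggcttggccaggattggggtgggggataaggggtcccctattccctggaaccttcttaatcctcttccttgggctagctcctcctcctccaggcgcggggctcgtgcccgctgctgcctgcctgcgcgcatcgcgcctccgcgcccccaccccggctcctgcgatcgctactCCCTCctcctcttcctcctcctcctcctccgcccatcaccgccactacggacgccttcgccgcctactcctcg
Gabrg1: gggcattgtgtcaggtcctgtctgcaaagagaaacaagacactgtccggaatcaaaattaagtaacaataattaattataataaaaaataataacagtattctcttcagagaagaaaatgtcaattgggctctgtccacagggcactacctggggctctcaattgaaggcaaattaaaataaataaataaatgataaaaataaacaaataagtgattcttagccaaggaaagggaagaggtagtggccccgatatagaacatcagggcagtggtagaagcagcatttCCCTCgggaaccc
Gria2: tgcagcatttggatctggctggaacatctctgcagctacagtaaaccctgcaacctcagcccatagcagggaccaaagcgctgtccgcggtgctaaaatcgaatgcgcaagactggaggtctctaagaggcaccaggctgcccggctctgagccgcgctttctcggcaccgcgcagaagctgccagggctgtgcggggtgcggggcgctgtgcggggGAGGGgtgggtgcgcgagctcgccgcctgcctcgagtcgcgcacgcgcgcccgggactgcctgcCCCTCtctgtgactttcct
Glrb: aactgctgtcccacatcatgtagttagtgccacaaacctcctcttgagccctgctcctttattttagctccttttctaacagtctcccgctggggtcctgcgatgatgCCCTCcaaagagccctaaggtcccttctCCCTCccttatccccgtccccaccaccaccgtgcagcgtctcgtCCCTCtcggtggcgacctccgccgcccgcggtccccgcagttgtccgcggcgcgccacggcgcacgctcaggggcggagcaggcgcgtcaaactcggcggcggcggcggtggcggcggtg
The Gabra2 window held 25 CpG dinucleotides at 70% GC, and the Gabrg1 window 3 at 38.3%. Gria2 had 26 and Glrb 30, both at 65.7% GC. The median over 32851 promoter windows of the same length was 7. CCCTC occurred 2 times for Gabra2, 1 time for Gabrg1, 2 times for Gria2 and 3 times for Glrb, and it occurs in 66.0% of all windows. A longer form of the CTCF motif, with free positions, had 0 matches on either strand in these windows and occurs in 2.43% of all windows. These matches describe letters and not binding. Of the 37 members, 25 had a promoter entry.

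Glycine and GABA-B receptors had few measured genes. Glrb stood at 25, 24 and 22.8 CPM in shRad21_1 and 10.1, 14.3 and 14.0 CPM in shRad21_2, against 28.1, 27.8 and 28.9 CPM in shNT. The groups were separate. Glrb fell by 1.15 in shRad21_2 against shNT (SE 0.13, adjusted p = 1.05e-04) and fell by 0.91 against shRad21_1 (SE 0.13, adjusted p = 0.00109). In shRad21_1 the value was -0.24 (SE 0.12, adjusted p = 0.257).

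Of the GABA-B pair, Gabbr1 binds GABA and Gabbr2 couples to the G protein. Gabbr1 had 30.6, 82.4 and 79.9 CPM in shRad21_1 and 37.3, 45.4 and 37.9 CPM in shRad21_2, against 55.3, 66.2 and 64.6 CPM in shNT. Replicate 1 of shRad21_1 was the lowest library of all and the other 2 of that group were the highest. Gabbr1 was not called, with log2 fold changes of 0.053 (SE 0.29, adjusted p = 0.936) in shRad21_1, -0.63 (SE 0.30, adjusted p = 0.111) in shRad21_2 and -0.68 (SE 0.30, adjusted p = 0.117) between the hairpins. In shRad21_2 against shNT, whose libraries did not overlap, edgeR's fit of these 2 groups alone called it (-0.63, adjusted p = 0.00157). Without shRad21_1 replicate 1 all 3 values were called, at 0.39, -0.63 and -1.01. Their adjusted p over the 18 alternatives ran from 0.045 to 0.978, from 5.16e-04 to 0.233 and from 8.33e-05 to 0.373. Gabbr2 had 1.82, 0.614 and 0.319 CPM in shRad21_1 and 0.332, 0.264 and 0.0856 CPM in shRad21_2, against 0.990, 0.991 and 1.42 CPM in shNT. The shRad21_1 libraries spread over both other groups. Gabbr2 fell by 2.28 in shRad21_2 against shNT (SE 0.65, adjusted p = 0.0173), a call lost without shNT replicate 3 (-2.08) or shRad21_2 replicate 3 (-1.91). The values were -0.31 (SE 0.57, adjusted p = 0.779) in shRad21_1 and -1.97 (SE 0.66, adjusted p = 0.0506) between the hairpins, where the DESeq2 Wald test, library totals and the fit without shRad21_1 replicate 3 called it (adjusted p 0.0156 to 0.172 over the alternatives).

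Replicate 1 of shRad21_1 stood apart for most of the better measured receptor genes. This was not particular to receptors. Over all genes tested, the chi-square per gene was 69.1 and 69.6 for replicate 1 with replicates 2 and 3, and 2.18 between those. Among 14 members with a shNT mean of at least 5 CPM, the distance of replicate 1 to the nearest other library of its group exceeded that between replicates 2 and 3 for 12. The share of all genes for which this held was not counted. On the log2 scale replicates 2 and 3 were at most 0.21 apart for these 14 members. Replicate 1 was the lowest of its group for Grm5, Gabbr1, Grik5 and Grm3 and the highest for Gria3, Gria4 and Gabra2.

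**Figure D4:**
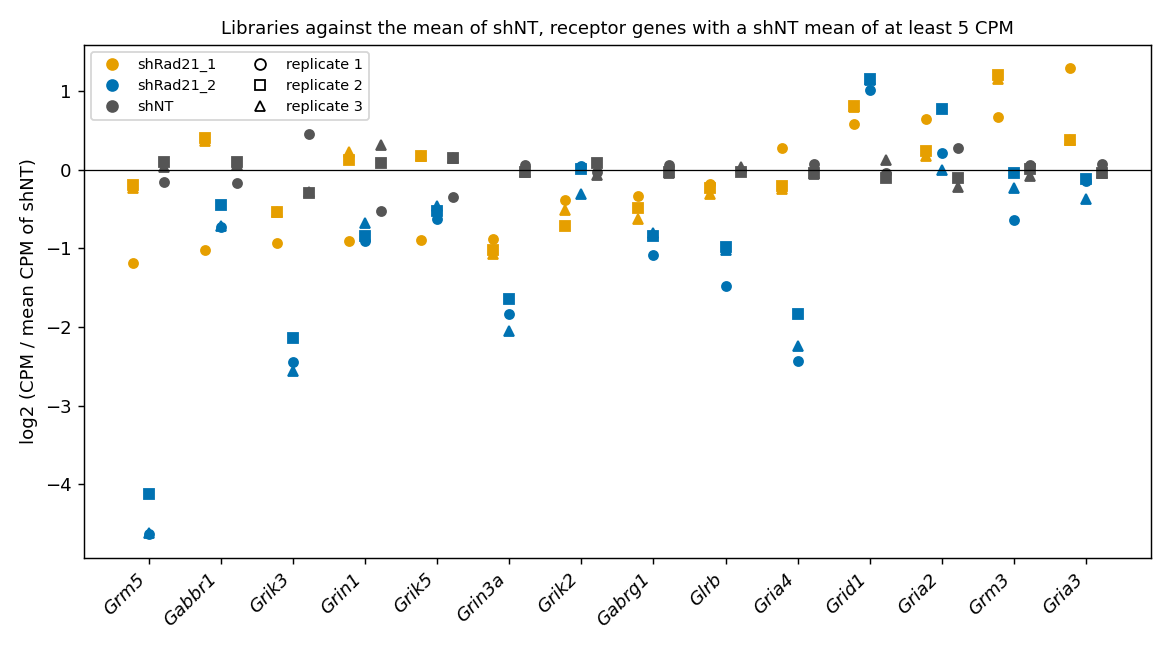
Log2 ratio of the CPM of each library to the mean of shNT (y axis) for 14 receptor genes with a shNT mean of at least 5 CPM (x axis), with shRad21_1 in orange, shRad21_2 in blue, shNT in grey, and a marker shape for each replicate number. The points of shRad21_1 replicates 2 and 3 are at most 0.21 apart. Replicate 1 (orange circle) lies farther from both than they lie from each other for 12 genes, and not for Glrb and Grik2.

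Other genes of the transmitter systems were read from 5 lists with 73 tested members. Over all of them 2 were higher and 8 lower in shRad21_1 than in shNT (13.7% called, against 9.82% of all genes), and 10 were higher and 31 lower in shRad21_2 than in shNT (56.2%, against 43.6%). Between the hairpins 1 was higher and 23 were lower (32.9%, against 26.3%). The median log2 fold changes were -0.080, -0.31 and -0.17, where those of all genes were 0.0052, 0.012 and -0.0022.

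Auxiliary subunits of AMPA and kainate receptors, which set channel traffic and gating, had 1 higher and 3 lower of 14 in shRad21_1 (28.6%) and 0 higher and 8 lower in shRad21_2 (57.1%). Cacng5, a transmembrane AMPA regulatory protein, was at 21.3, 24.0 and 23.6 CPM in shRad21_1 and 4.32, 1.79 and 1.71 CPM in shRad21_2, against 54.7, 85.9 and 86.9 CPM in shNT. The groups were separate, and Cacng5 fell by 1.72 in shRad21_1 (SE 0.29, adjusted p = 0.00668) and fell by 4.83 in shRad21_2 (SE 0.34, adjusted p = 8.33e-06). The shRad21_2 value was -5.44 without shRad21_2 replicate 1. Glutamate receptor scaffolds had 0 called of 19 in shRad21_1 by edgeR (9 at an unadjusted p under 0.05), 6 by the DESeq2 Wald test and 2 by limma-voom. They had 5 higher and 7 lower in shRad21_2 (63.2%).

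The synthesis and uptake of GABA and glycine had 0 higher and 4 lower of 13 in shRad21_1 (30.8%), and 0 higher and 10 lower in shRad21_2 (76.9%). Gad1, which makes GABA from glutamate, had 4.87, 4.62 and 4.49 CPM in shRad21_1 and 1.40, 1.20 and 1.23 CPM in shRad21_2, against 10.9, 8.45 and 10.0 CPM in shNT. It fell by 1.07 (SE 0.14, adjusted p = 0.00259) in shRad21_1 and fell by 2.93 (SE 0.16, adjusted p = 2.78e-06) in shRad21_2. Slc6a11, the GABA transporter GAT3 of astrocytes, was at 29.5, 137 and 140 CPM in shRad21_1 and 3.50, 3.23 and 2.77 CPM in shRad21_2, against 361, 345 and 335 CPM in shNT. Its log2 fold changes were -1.77 (SE 0.43, adjusted p = 0.0308) in shRad21_1 and -6.77 (SE 0.56, adjusted p = 2.11e-05) in shRad21_2. The first call was lost with a fit of 2 groups, when any 1 shNT library was left out, or without shRad21_2 replicate 3. Slc6a9, the glycine transporter GlyT1, averaged 30.8 ± 12.7 CPM in shRad21_1 and 34.4 ± 10.2 CPM in shRad21_2, against 87.9 ± 8.92 CPM in shNT. It fell by 1.51 (SE 0.31, adjusted p = 0.0156) in shRad21_1, a call lost without shNT replicate 2 or 3, and fell by 1.35 (SE 0.31, adjusted p = 0.0062) in shRad21_2. With close pairs summed, the shRad21_1 calls of Cacng5 (-1.65), Gad1 (-1.09), Slc6a11 (-2.06) and Slc6a9 (-1.65) were all lost.

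Partners of GABA and glycine receptors had 1 higher and 0 lower of 15 in shRad21_1 (6.67%) and 3 higher and 2 lower in shRad21_2 (33.3%), both shares below those of all genes. The member higher in both was Iqsec3, a gephyrin-binding exchange factor of inhibitory synapses, with 82 counts in shRad21_1 and 75 in shRad21_2, against 1 in shNT. The count ratio was 90.8 for shRad21_1 over shNT (interval 15.8 to 3628) and 81.3 for shRad21_2 over shNT (14.1 to 3252). In shRad21_1 most of it came from replicate 1, with 1.82 CPM against 0.293 and 0.106 CPM in replicates 2 and 3, and that call was lost with close pairs summed, with a fit of 2 groups and when any 1 shNT library was left out. Genes of glutamate synthesis, release and uptake had 0 higher and 1 lower of 12 in shRad21_1 (8.33%) and 2 higher and 4 lower in shRad21_2, shares near those of all genes.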

How the data were processed

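Whole-number counts per gene symbol were deposited for 9 libraries of total RNA turned into cDNA with random hexamers, per the labels' protocols. Per the submitters' processing notes, the authors used FastQC, cutadapt, Trim Galore, Bowtie2 and RSEM with the mouse build mm10. Tool versions, annotation, strand setting and the rounding of RSEM estimates are not given in the sources read, so genes with overlapping exons or close relatives may share reads. No value column was left unused (0).

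Library totals ran from 34780003 to 46644607 counts. The quasi-likelihood test of edgeR 4.0.16 (R 4.3.3) was fitted to the 13560 of 24503 genes that passed filterByExpr, with TMM scaling and 3 group means over all 9 libraries. All p-values are two-sided. Genes were called at a Benjamini-Hochberg adjusted p under 0.05 over all genes tested. Alternatives were DESeq2 1.42.0 size factors and Wald test, library totals, limma-voom (limma 3.58.1), a looser filter (10 summed counts), a stricter one (1 CPM in 3 libraries), fits of 2 groups, a replicate block, close pairs summed, and each library left out. The scripts were tested on simulated data. Intervals of count ratios are exact (Clopper-Pearson, confidence level 0.95), and these and the 3-count floor cover counting error only.

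The members and lists were chosen with earlier results of these data known. Values in full were given for members called in at least 2 comparisons, for members called in 1 with an absolute log2 fold change of at least 1, and for the highest gene per kilobase of each class. Related genes named were called in both comparisons with shNT with absolute values of at least 1 and the same sign. Some members are not reported here by name, though the counts include them. Gabra3 and the members not called were named in addition, with their values seen. Gene positions, exon lengths and overlaps came from GENCODE M21 and promoters from RefSeq (GRCm38.p6). The replicate numbers of the titles were checked for pairing by the correlation of deviations from group means between libraries of the same number. It was 0.24, 0.12 and 0.12 for shRad21_1 with shNT, where every value passed 0.1. However, replicates 2 and 3 of shNT each correlated more with the shRad21_1 library of the other's number (0.16 and 0.15). Whether the numbers mark pairs is thus unsettled. The main tests used no pairing, and the replicate block was an alternative. The correlation was 0.064 to 0.083 for shRad21_2 with shNT and 0.017 to 0.089 between the hairpins.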

Additional observations from a re-analysis of the deposited data

Results flagged for a closer look

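For 4 receptor genes the values of the hairpins against shNT had opposite signs and the hairpins themselves differed in the test. Gabra3 was higher in shRad21_2 than in shRad21_1 by a log2 difference of 0.96. Gria3 differed by -0.96, Grin2a by -1.35 and Grm3 by -1.31, all lower in shRad21_2. Against shNT, the only one of these values called was that of Grm3 in shRad21_1. The difference of Grin2a held in 2 of 17 alternatives and that of Gabra3 in 10 of 18, while those of Gria3 and Grm3 held in 18 of 18.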

How the results depend on the processing

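The counts of 2 higher and 12 lower members in shRad21_2 against shNT, and of 12 lower between the hairpins, stayed within 1.5 times under every alternative run. Members higher in shRad21_1 than in shNT, 2 in number, were 0 with close pairs summed and 2 to 4 with a library left out; those lower, 5 in number, were 1 with close pairs summed and 2 to 5 with a library left out. Members higher in shRad21_2 than in shRad21_1, 4 in number, were 2 with library totals, 0 with a fit of 2 groups, 0 with close pairs summed and 0 to 3 with a library left out. The cause was not tested. Over all genes, 1331 were called in shRad21_1 against shNT, 2042 with the DESeq2 Wald test, 132 with close pairs summed and 460 to 1598 with a library left out. For shRad21_2 against shNT 5917 were called, and 3710 with close pairs summed. Between the hairpins 3563 were called, 2255 with a fit of 2 groups, 1271 with close pairs summed and 2054 to 4471 with a library left out. With the replicate block 7 members were called in shRad21_1, as without it (Grik2 lost, Gria3 gained). For the other comparisons, 14 became 16 for shRad21_2 against shNT, and 16 became 15 between the hairpins. In shRad21_2 against shNT every library correlated best with that of its own number, a hint from the data only. Between the hairpins not every one did. Values that were not called changed sign in some settings. For shRad21_1 against shNT, Gabbr1 was -0.077 with limma-voom, -0.030 with the replicate block, -0.11 with close pairs summed and -0.17 to 0.39 with a library left out. Gabbr2 was 0.0021 and Gria4 0.030 with close pairs summed. With a library left out, Gabbr2 was -1.28 to 0.098, Gria4 -0.22 to 0.060, Gabra2 -0.51 to 0.65, Gria1 -0.85 to 0.14, Grik5 -0.26 to 0.18 and Grin2a -0.084 to 0.49. Grik2 in shRad21_2 against shNT was -0.14 to 0.024. The stricter filter gave no value for, among others, Gabbr2, Grin2a, Grin2b, Grm4 and Iqsec3. Genes such as Grm4 and Grin2a rest on 15 to 106 counts a group, and the smallest difference detectable at that depth was not measured.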
